A study of Homo sapiens with 2 samples.

Results

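The albumin family and the other carrier proteins that the liver secretes into plasma were followed after depletion of DEPDC1 in Huh-7, a human cell line established from a hepatocellular carcinoma. The 10 genes were ALB, AFP, AFM and GC of the albumin family, TTR and RBP4, TF and HPX, and the fetuins AHSG and FETUB. They were chosen by gene symbol, and 9 of the 10 had a probe set of their own in the platform annotation, 1 each, among 18417 genes measured in this way. GC, the vitamin D binding protein, had no such probe set listed and was not analysed here. RNA came from a culture that received DEPDC1 siRNA and from a control culture that received NC, as the labels name it. Both cultures were collected 72 h after transfection. The targeted transcript DEPDC1 had a log2 value of 5.15 in the siRNA array and 7.82 in the NC array, 6.37-fold lower. Each group was 1 array, so every value below is a single measurement, no difference has a replicate check, and no p-value is given.

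Hepatocytes make most of the protein in blood plasma, and much of it serves to carry small molecules that are poorly soluble, reactive or easily lost. Albumin binds fatty acids, bilirubin, hormones and drugs. Alpha-fetoprotein is its fetal counterpart, is silenced in the liver after birth and is made again in many hepatocellular carcinomas. The genes of the albumin family lie on chromosome 4, with ALB, AFP and AFM in tandem, and are driven in liver by HNF1, C/EBP, FOXA and other factors.

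The 250 bases before the RefSeq start (GRCh38.p14) are shown for 4 members, since these genes are neighbours that were both lower (ALB and AFP), crossed the detection threshold (AHSG) or were higher (HPX). Capitals mark every match, on either strand, to the HNF1 half-site GTTAAT, the C/EBP motif TTGCNNAA, the FOXA motif TGTTTAC or the HNF4 motif CAAAGTCCA. No matches overlapped. The windows are chr4:73404037-73404286 on the plus strand for ALB, chr4:73435971-73436220 on the plus strand for AFP, chr3:186612810-186613059 on the plus strand for AHSG and chr11:6440988-6441237 on the minus strand for HPX. Each is printed 5′ to 3′ in the direction of its gene.
ALB: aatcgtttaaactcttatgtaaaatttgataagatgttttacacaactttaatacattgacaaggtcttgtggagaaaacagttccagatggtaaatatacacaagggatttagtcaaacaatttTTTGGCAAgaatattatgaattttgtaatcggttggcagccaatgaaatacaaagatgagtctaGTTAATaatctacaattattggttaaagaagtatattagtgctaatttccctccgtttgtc
AFP: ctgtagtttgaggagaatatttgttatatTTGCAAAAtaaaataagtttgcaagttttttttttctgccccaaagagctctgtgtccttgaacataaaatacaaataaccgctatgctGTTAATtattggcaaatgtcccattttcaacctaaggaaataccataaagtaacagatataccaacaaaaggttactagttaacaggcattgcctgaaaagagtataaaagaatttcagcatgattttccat
AHSG: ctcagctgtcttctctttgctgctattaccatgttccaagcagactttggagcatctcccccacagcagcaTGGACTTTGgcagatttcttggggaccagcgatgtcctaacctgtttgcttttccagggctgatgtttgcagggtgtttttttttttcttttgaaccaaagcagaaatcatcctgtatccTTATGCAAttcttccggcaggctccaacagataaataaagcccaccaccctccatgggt
HPX: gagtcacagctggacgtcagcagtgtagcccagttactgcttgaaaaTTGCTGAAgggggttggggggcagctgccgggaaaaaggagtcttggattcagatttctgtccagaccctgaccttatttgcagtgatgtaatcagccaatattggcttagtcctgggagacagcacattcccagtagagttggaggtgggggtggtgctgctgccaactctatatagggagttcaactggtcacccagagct

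In these windows ALB had an HNF1 half-site 61 to 56 bases and a C/EBP match 125 to 118 bases before the start. AFP had its HNF1 half-site 132 to 127 bases and its C/EBP match 221 to 214 bases before the start. AFM, the third neighbour, also held 1 match to each of these motifs. AHSG had a C/EBP match 59 to 52 bases and the HNF4 match 179 to 171 bases before the start, and HPX held a C/EBP match alone. The RefSeq promoter windows used here covered 8 of the 10 members, 12 windows in all because TF, FETUB and RBP4 have several starts. The members without one were TTR and GC. A C/EBP match was present in 8 of the 12 windows, 1 for each of the 8 members, against 9.05% of all 35116 windows. Of the RBP4 windows 2 overlap, so the 12 are not all separate sequences. The HNF1 half-site was in 3 of the 12, against 6.23% of all windows. The HNF4 motif was in 1, against 0.325%, and the FOXA motif in none, against 2.98%. A match says only that these letters occur there.

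The deposited values were taken as log2 expression. A value counted as detected from 4.66 upward, the median of the whole table, which was set by convention and does not measure background. Of the 9 measured members, 6 were above this threshold on both arrays (ALB, AFP, TTR, RBP4, TF and HPX), AHSG was above it on the NC array alone, and AFM and FETUB were under it on both. By their measured values 3 members (AFP, AHSG and TF) had a siRNA value lower by 2-fold or more, TTR was the 1 member at least 2-fold higher, and ALB, RBP4 and HPX lay between. Among all 11352 detected genes the share lower by this much was 0.863% and the share higher by this much 1.94%. Over the 5336 genes with a mean of at least 6.49 (the 75th percentile of the table), where most of the detected members lie, those shares were 1.01% and 1.74%. AHSG entered the count only through its NC value. With AHSG left aside, 2 of the 6 members detected on both arrays were at least 2-fold lower and 1 at least 2-fold higher. The detected members did not share 1 direction, 5 being lower, AHSG among them, and 2 higher. Their median difference was -0.50 over all 9 and -0.53 over the 7 detected, against a median of 0.00 over all detected genes. The median size of the difference, whatever its sign, was 0.95 over the 6 members detected on both arrays and 0.19 over all detected genes.

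**Figure D1:**
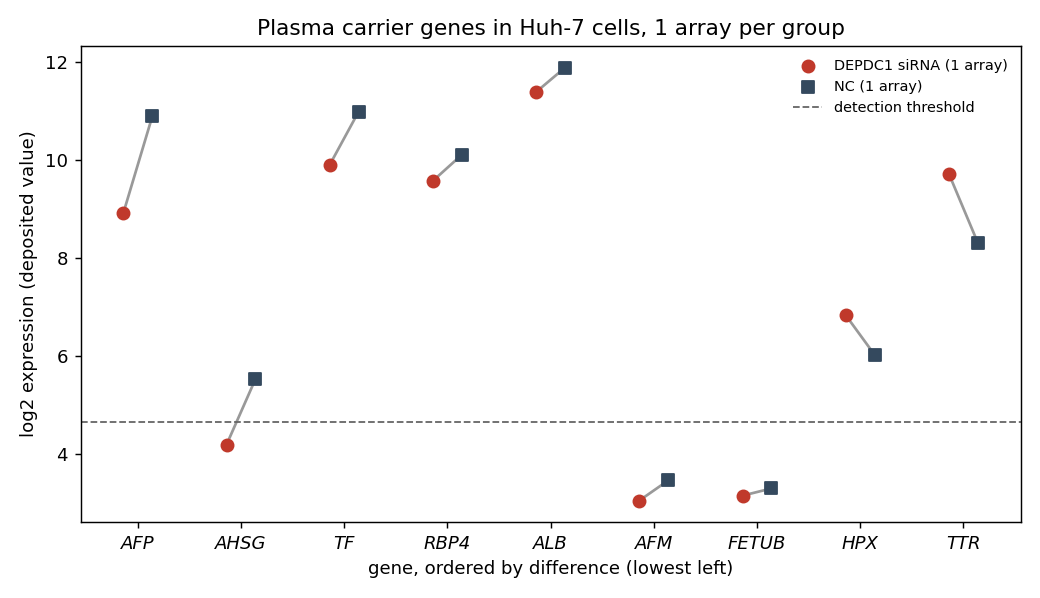
Log2 expression of the 9 measured carrier genes (vertical axis) in the DEPDC1 siRNA array (circles) and the NC array (squares), ordered along the horizontal axis from the lowest to the highest difference. The dashed line is the detection threshold of 4.66. AFP, AHSG, TF, RBP4 and ALB were lower and HPX and TTR higher in the siRNA array, and AFM and FETUB lay under the threshold in both.

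Hepatocyte markers outside the members were present, 9 of 12 being detected, while TAT, CPS1 and CYP3A4 were under the threshold on both arrays. Of these 9 markers 8 were lower in the siRNA array and 3 (APOB, APOC3 and SERPINA1) at least 2-fold lower, with a median of -0.78. All 9 also stand in the apolipoprotein, acute-phase or receptor lists below, so those lists repeat their values. In bulk RNA, fewer cells of a type and less RNA per cell cannot be told apart. Both cultures are labelled as the cell line Huh-7, so markers of other cell types are given here as transcripts, not as a measure of such cells. Of 14 fibroblast and stellate cell markers 7 were detected, 3 of them at least 2-fold higher (LUM, FBN1 and COL1A2), and their signal over all 14, summed on the linear scale, was 1611 in the siRNA array and 568 in the NC array. LUM had a log2 value of 9.95 in the siRNA array and 7.64 in the NC array, and FBN1 had 7.98 in the siRNA array and 5.79 in the NC array. The median difference was 0.11 over the 7 detected markers and 0.13 over all 14. DCN, PDGFRB, ACTA2, THY1, FAP, POSTN and RGS5 were under the threshold on both. Detected were 1 of 8 endothelial, 2 of 8 macrophage and leukocyte and 3 of 5 cholangiocyte markers. Summed over all markers of each list on the array, detected or not, the signals were 105 in the siRNA array and 112 in the NC array, 269 against 210, and 1447 against 1253. LYZ, which encodes lysozyme, was the 1 of these at least 2-fold higher, and no marker was listed at 0. The part of these markers in the carrier differences was not tested.

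ALB and AFP, the neighbouring members of the albumin family, were both lower, by unequal amounts. AFP (probe set 8095646), the fetal plasma protein used as a serum marker of liver cancer, had 8.92 in the siRNA array and 10.89 in the NC array. The difference of -1.97 on the log2 scale is 3.92-fold lower, and only 6 of the 11352 detected genes had a lower one. AFP thus had the lowest difference of the members. ALB (probe set 8095628) had 11.39 in the siRNA array and 11.89 in the NC array. Its difference of -0.50 leaves 0.708 times the NC signal, and 5.32% of detected genes had a difference as low or lower. AFP was lower than ALB by a further 1.47 on the log2 scale, so that the ratio of AFP to ALB signal was 2.78-fold lower in the siRNA array. The differences of separate probe sets of 1 gene had a median range of 0.0866 and a 90th percentile of 0.413 over 444 genes. That range gauges only how far probe sets disagree on the same 2 arrays, and is too small where they have probes in common. It holds no spread between cultures or arrays, so the ALB difference of -0.50 cannot be judged against it. AFM, afamin, a carrier of vitamin E, had 3.04 in the siRNA array and 3.46 in the NC array, both under the threshold, so no fold is given.

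TTR and RBP4, whose proteins circulate as 1 complex, differed in opposite directions. TTR (probe set 8020795), transthyretin, carries thyroxine and holds the retinol-loaded RBP4 in plasma. It had 9.72 in the siRNA array and 8.31 in the NC array, a difference of 1.41 or 2.65-fold higher. This was the highest difference of the members, and 88 of the 11352 detected genes (0.775%) had one at least as high. RBP4 (probe set 7935116), the retinol carrier that brings vitamin A out of the liver, had 9.57 in the siRNA array and 10.11 in the NC array. It was 1.45-fold lower, a difference of -0.53, and 4.61% of detected genes had a difference as low or lower. The TTR and RBP4 differences were 1.94 apart on the log2 scale, and those of TTR and AFP 3.38 apart.

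The carriers of iron and haem also went in opposite directions. TF (probe set 8082797), transferrin, binds ferric iron and delivers it to cells. Its values were 9.90 in the siRNA array and 10.99 in the NC array, a difference of -1.09 or 2.12-fold lower. Only 72 detected genes had a lower difference, but TF lies close to the 2-fold limit. HPX (probe set 7946167), hemopexin, binds free haem and is an acute-phase protein. It had 6.83 in the siRNA array and 6.02 in the NC array, a difference of 0.81 or 1.75-fold higher, short of the limit. A difference this high was found in 3.20% of detected genes. The HPX and TF differences were 1.90 apart on the log2 scale.

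The fetuins are cystatin-related glycoproteins. AHSG (probe set 8084648), fetuin-A, keeps calcium phosphate in solution and inhibits the insulin receptor. It had 4.19 in the siRNA array, under the threshold, and 5.52 in the NC array. The measured difference was -1.34, and against the threshold AHSG was at least 1.82-fold lower. FETUB, fetuin-B, which in mice protects the egg coat from early hardening, had 3.15 in the siRNA array and 3.29 in the NC array, both under the threshold. Whether the FETUB transcript differed was therefore not measurable here.

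**Figure D2:**
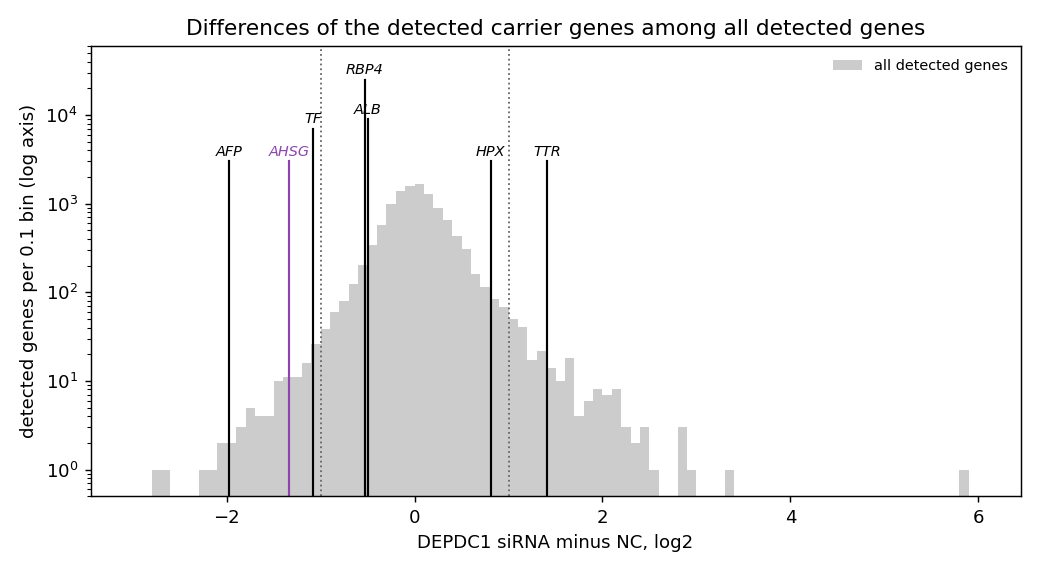
Number of detected genes (grey, log axis) by their siRNA minus NC difference on the log2 scale, in bins of 0.1, with vertical lines at the 7 detected carrier genes. AHSG, under the threshold in the siRNA array, is in purple, and dotted lines mark 2-fold; AFP at -1.97 and TTR at 1.41 lie in opposite tails.

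Genes near the carriers on the chromosomes differed in both directions or little. On chromosome 4, in RefSeq order, SLC4A4 is the nearest measured gene before GC. SLC4A4, a sodium bicarbonate cotransporter, had 7.38 in the siRNA array and 5.39 in the NC array, 3.97-fold higher. Between GC and ALB, and named after their values were seen, ADAMTS3, a procollagen-processing protease, was at least 2.35-fold higher (5.89 against 4.45, the NC value being under the threshold). COX18 and ANKRD17, which is next to ALB, differed by -0.17 and -0.20. Beyond AFM, RASSF6 and CXCL6 were under the threshold on both arrays and CXCL8, the chemokine interleukin 8, differed by -0.33. DCK and MOB1B, before SLC4A4, differed by -0.18 and -0.04. Of the 7 detected neighbours and genes between, 2 were thus at least 2-fold different, both higher. On chromosome 3, KNG1, which encodes kininogen, another cystatin-related plasma protein, is the second measured gene beyond FETUB. It had 6.32 in the siRNA array and 8.33 in the NC array, a difference of -2.01 or 4.03-fold lower. HRG, between FETUB and KNG1, was under the threshold on both arrays, as was CRYGS on the other side. DNAJB11, an ER chaperone next to AHSG, differed by 0.17, TBCCD1 by -0.01 and EIF4A2 by -0.02.

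**Figure D3:**
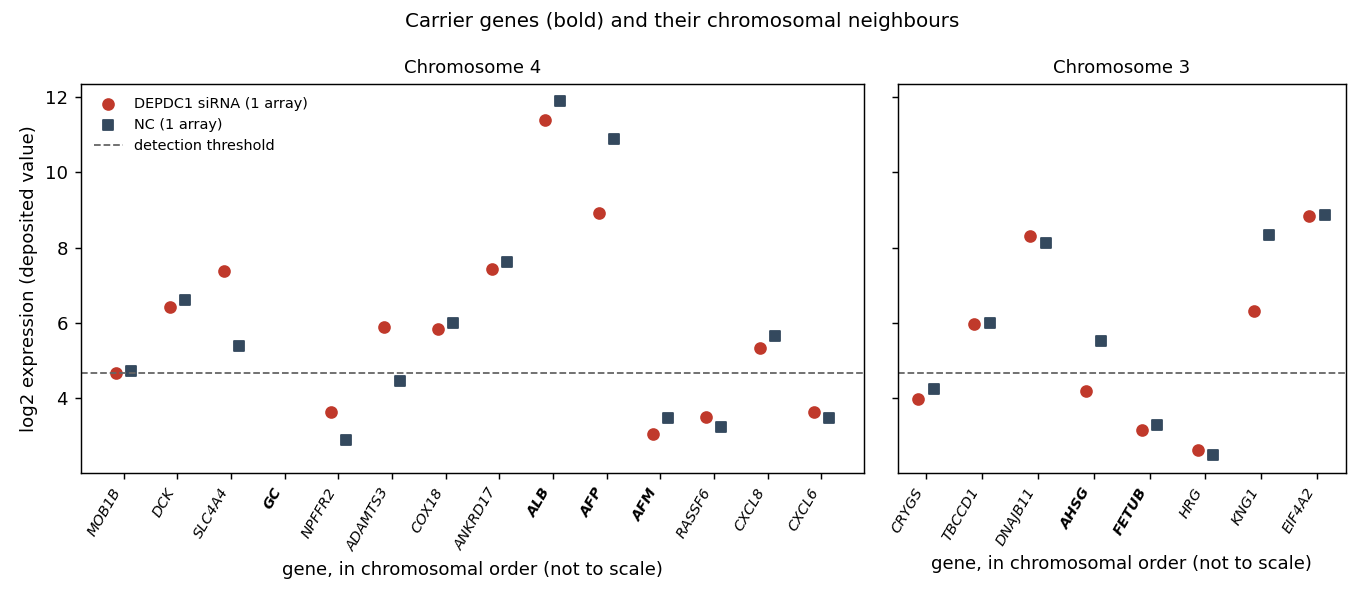
Log2 expression (vertical axis) of carrier genes (bold) and their neighbours in chromosomal order, not to scale, in the DEPDC1 siRNA array (circles) and the NC array (squares), with the detection threshold dashed. On chromosome 4 ALB and AFP were lower while SLC4A4 and ADAMTS3 were higher in the siRNA array, and on chromosome 3 AHSG and KNG1 were lower; GC has no point.

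Other secreted products of hepatocytes were set beside the carriers as counts and medians. Of 17 other plasma carriers 11 were detected, and 5 of these were at least 2-fold lower and none higher by that much, with a median of -0.72. SERPINA6 is among them only through its NC value, and the median over all 17, detected or not, was -0.19. ORM2 and ORM1, the drug-binding orosomucoids, differed by -1.84 and -1.78. As close copies of each other they may not be told apart by their probe sets. SERPINA6, the cortisol carrier, had 4.66 in the siRNA array, just under the unrounded threshold, and 5.76 in the NC array and was at least 2.15-fold lower, and AMBP, the precursor of alpha-1-microglobulin, was 2.09-fold lower. Of 17 acute-phase proteins on the array 8 were detected, and 4 of these were at least 2-fold lower and none higher by that much, with a median of -1.10. HAMP, named after its value was seen, passed the threshold only through its NC value (4.62 in the siRNA array and 4.83 in the NC array). The median over all 17, detected or not, was -0.21. The 2 with the largest differences were again ORM2 and ORM1, followed by SERPINA1, alpha-1-antitrypsin, at -1.67 and C3 at -1.42. HPX, itself an acute-phase protein but not counted in that list, was higher. Of 9 detected apolipoproteins and assembly factors 2 were at least 2-fold lower and none higher, with a median of -0.27, or -0.04 over all 13 on the array. APOC3 and APOB differed by -1.45 and -1.35, APOA1 by -0.71 and MTTP, the lipid transfer protein that loads APOB, by 0.51. No detected gene of these 3 groups was higher by as much as TTR or HPX, the highest being MTTP.

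Receptors linked to the carriers went both ways. Of the 9 detected 4 were lower and 5 higher, none was at least 2-fold different, and the differences ran from -0.47 to 0.66. Among the 5 higher is INSR, the insulin receptor, at 0.15, which is not an uptake receptor of the carriers. The transferrin receptors TFRC and TFR2 differed by 0.01 and 0.17, beside -1.09 for their ligand TF. Both were named after their values were seen. LRP1, the uptake receptor for haem-hemopexin complexes, differed by 0.66, with 8.13 in the siRNA array and 7.47 in the NC array. FCGRT, the neonatal Fc receptor that rescues albumin from degradation, differed by -0.38. ASGR1 and ASGR2, the asialoglycoprotein receptor subunits of hepatocytes, differed by -0.47 and -0.41.

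By measured values, no detected gene in the lists for handling of the carried molecules differed by 2-fold. The iron and haem list holds TFRC and TFR2 again. Of 13 detected iron and haem genes 8 were lower and 5 higher, with a median of -0.21. HAMP, which passed only through its NC value, is 1 of the 8 and is itself the median, and over all 16 on the array the median was -0.19. SLC40A1, the iron exporter ferroportin, differed by 0.64, BMP6, an inducer of hepcidin, by 0.57, FLVCR1, a haem exporter, by -0.55 and FTL, ferritin light chain, by -0.42. The 7 detected retinoid genes had a median of 0.09. DHRS3 and RDH10, which interconvert retinal and retinol, differed by -0.52 and -0.50, CYP26B1, which degrades retinoic acid, by 0.51 and RETSAT by 0.45. In the thyroid hormone list 3 genes were detected, the receptors THRA and THRB at 0.64 and -0.64 and the transporter SLC16A10 at -0.48. In the vitamin D list 4 were detected. CYP27A1, a sterol hydroxylase, was at least 1.59-fold lower, a bound that does not exclude 2-fold, RXRA and CYP2R1 differed by -0.16 and 0.12, and DHCR7 had the same value on both arrays.

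Of 21 transcription factors known to act on albumin family or carrier genes, 16 had a probe set of their own and 15 were detected. CEBPA, which activates ALB and other hepatocyte genes, was the 1 at least 2-fold lower (2.49-fold), with 6.76 in the siRNA array and 8.07 in the NC array. ONECUT1, GATA4 and NR5A2 differed by -0.95, -0.85 and -0.58, and none was at least 2-fold higher. CEBPB differed by 0.08, and FOXA1, FOXA2 and FOXA3 by -0.48, -0.04 and -0.39, all of them named after their values were seen. Of the 15 detected 9 were lower and 6 higher. ZHX2 and ZBTB20, known in mice as repressors of AFP after birth, were named after their values were seen. They differed by 0.33 and 0.47, both under the 95th percentile of all detected genes, 0.65. Any part of them in the AFP difference was not tested. The median of the list was -0.13.

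**Figure D4:**
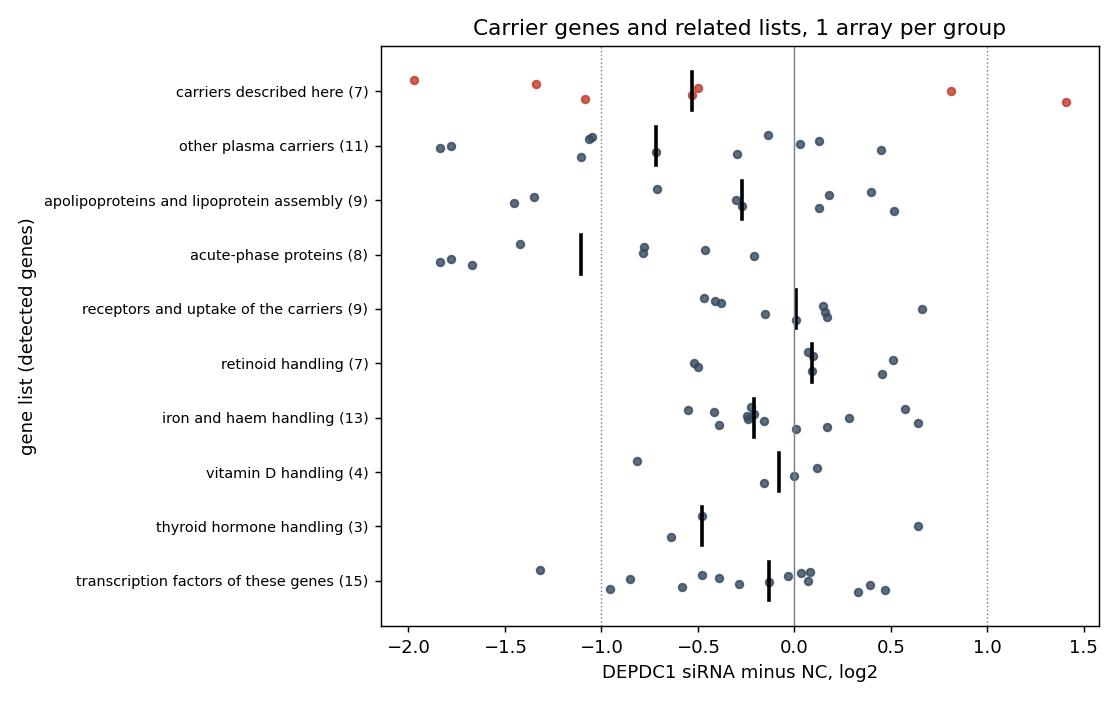
Difference of each detected gene (points, siRNA minus NC on the log2 scale, horizontal axis) in the carrier genes and 9 related lists (vertical axis, number of detected genes in parentheses), with list medians as black bars and 2-fold as dotted lines. The carriers described here spread from -1.97 to 1.41, while receptors and genes that handle the carried molecules lie within 2-fold by measured values.

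By values on both arrays, the genes most like AFP were APOB (9.32 in the siRNA array and 10.67 in the NC array), MBNL3 and ACSL4, at distances of 0.46, 0.46 and 0.75 on the log2 scale over the 2 arrays. Those most like TTR were ANXA3 (9.64 in the siRNA array and 8.29 in the NC array), BMP4 and MICAL2, at distances of 0.08, 0.29 and 0.33. With 1 array per group such likeness rests on 2 values a gene, and levels of different probe sets are not calibrated to one another.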

How the data were processed

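RNA of 2 Huh-7 cultures was measured on 1 expression array each. The deposited table lists 33297 probe sets with a value for each array. Its unit is not labelled; the deposited values ran from 1.39 to 12.75 and were taken as log2 expression, already normalized, since the sorted columns differed by at most 0.0997. The tools named, per the submitters' processing notes, are Affymetrix Expression Console and version 3.0 of Transcriptome Analysis Console, with no role given; background correction and normalization are not given in the sources used here. Both arrays had identical values for 1940 probe sets, 226 detected genes among them and none of the members.

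Genes were assigned to probe sets by the annotation GEO holds for the platform, and symbols other than the members' were updated through Entrez identifiers (RefSeq, GRCh38.p14; 19429 of 19460 matched). Probe sets listing several genes (1754) or none (12083) were left out. For the 769 genes with several probe sets, the one with the highest mean was used. The detection threshold was the median of all probe sets. A value under it gives a bound ("at least"). Differences are siRNA minus NC; with 1 array per group no test was run, and the number of arrays limits the precision. The procedure was tested on simulated data with known changes set beyond 2-fold, which checks the calling code and not the spread between cultures. Named were all members, up to 4 detected genes per list with the largest absolute difference, the 3 nearest measured neighbours on each side, the 3 genes nearest in value to the members with the lowest and highest difference, and DEPDC1; cell type markers are named by their state of detection. Members, lists and motifs were chosen with earlier results of these data known. Python 3.11.15, pandas 2.3.3, NumPy 2.4.6 and matplotlib 3.10.9 were used.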

Additional observations from a re-analysis of the deposited data

How the results depend on the processing

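In all, 8 alternatives were tried. Each measured member has 1 probe set, so the choice among probe sets changed no member's value. Centring each array on its detected genes shifted all differences by -0.06, and neither this nor quantile normalization moved any member by more than 0.06 on the log2 scale or changed its direction. When every value under the threshold was set to the threshold, AHSG differed by -0.87, no longer 2-fold, and 2 members were at least 2-fold lower in place of 3. The same count of 2 came from a detection threshold at the 75th percentile, which leaves AHSG out. At a threshold of 1.5-fold, 2 members were higher in place of 1, HPX joining TTR, while the count of lower members stayed 3. The median difference of the members lay between -0.59 and -0.50 over the alternatives. No paired analysis was possible because each group has 1 array. A difference between 2 single cultures cannot be set against the spread between cultures, and AFM, FETUB and AHSG lie near or under the threshold, where background signal can compress differences.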
